A study of Mus musculus with 3 samples.

Results

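Nnt encodes nicotinamide nucleotide transhydrogenase, and its 3 transcript forms listed in the deposited tables are described here in wild-type mouse distal colon. The forms were taken as every row whose gene name is Nnt, which gave 3 of 34535 listed transcripts and 1 of 24406 genes. The gene was chosen by its own listed FPKM values in these tables, so its levels are descriptions and carry no test. The 3 samples, each with 1 file, are labelled as distal colon at 8 weeks of age with the genotype WT, the strain label JAX and the treatment label steady-state, and they form 1 group. The names of the 3 files share an index sequence and a lane and differ, beside the sample identifier, in a running number, so the files may be parts of 1 library, and agreement between them is not agreement between animals. JAX is a supplier's name, and the labels name no C57BL/6 substrain and do not say whether the samples came from separate animals. Polyadenylated RNA of the whole tissue was sequenced, so fewer cells of a type and less RNA per cell cannot be told apart.

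The Nnt protein sits in the inner mitochondrial membrane and uses the proton gradient to pass hydride from NADH to NADP+. The NADPH it makes feeds the glutathione and thioredoxin systems that remove peroxide in the mitochondrial matrix. The C57BL/6J substrain is known for a deletion of consecutive internal Nnt exons and for lacking the functional protein, while other mouse strains carry the whole gene. The mouse reference genome is built from C57BL/6J. Reads from the deleted exons therefore have no place in it, and a table made on it cannot tell an animal with the deletion from one without it. The FPKM of Nnt (fragments scaled to the length of the transcript and to the mapped fragments of the library) measures only the exons that the reference holds.

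On GRCm38, the build whose positions the files carry, all forms lie on the minus strand of chromosome 13. NM_008710, listed as coding, spans chr13:119334317-119409011 with a spliced length of 4614 bases. NM_001308506, also coding, spans chr13:119335527-119409257 with 3645 bases. NR_003544, the non-coding entry, spans chr13:119335527-119409138 with 3526 bases. The rows thus hold 2 coding forms and 1 non-coding form. The RefSeq gene record on GRCm38.p6 starts and ends on the same bases as NM_001308506. The transcript given with that record is NM_001308506.1, so the match is of this form with its own record.

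The non-coding and the second coding entry differ at one end only. The 17 exons of Nnt-202, a protein-coding transcript in the GENCODE M21 annotation of GRCm38, give exactly 3526 and 3645 bases when their outer ends are set to those of NR_003544 and NM_001308506. By these lengths NR_003544 is contained in NM_001308506, which has 119 further bases at its 5′ end, or 3.26% of its length. NM_008710 starts 127 bases inside NR_003544 at the 5′ end and runs 1210 bases past it at the 3′ end, or 26.2% of its own length. Its listed length exceeds that of the same exons by 5 bases, whose place the files do not give. No gene of another name overlaps the listed span in GENCODE M21. A further gene record, also named Nnt, lies there on the minus strand at chr13:119335528-119408952.

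The coding sequence that GENCODE gives Nnt-202 lies within the span of the entry listed as non-coding. All 2505 coding bases fall inside NR_003544, and 0 coding bases fall in the 119-base stretch of NM_001308506 or in the 3′ stretch of NM_008710. The frame is open, with 835 codons from the start to the stop and 0 in-frame stops before the last codon. The following 3 sequences of Nnt-202 show where that frame starts, where it passes the join of exons 7 and 8, and where it ends. That C57BL/6J lacks exons of the full gene at this join is background and was not tested here. Each sequence is given 5′ to 3′ on the transcript strand from the GENCODE M21 transcripts. Capitals mark the start codon in the first, the first 30 bases of exon 8 in the second and the stop codon in the third. The first lies in exon 2 at chr13:119404673-119404702, the second joins chr13:119381676-119381705 in exon 7 to chr13:119374745-119374774 in exon 8, and the third lies in exon 17 at chr13:119336257-119336286.
start of the frame: ATGgcgcacctactgaagacggtggtggct
join of exons 7 and 8: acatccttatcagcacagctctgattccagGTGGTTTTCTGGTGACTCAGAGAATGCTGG
end of the frame: gccaaagttcgggaatcctatcagaagTGA

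At the join of exons 7 and 8, 964 coding bases have passed, which leaves a remainder of 1 base after whole codons. The intron between these exons is 6901 bases long in the reference. GENCODE lists 6 transcripts under the name Nnt. Of these, Nnt-201 differs from Nnt-202 by leaving out exons 8 and 9, 342 bases in all. The deposited tables have no row for a form without those exons, so reads that join exon 7 to exon 10 are not listed apart.

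**Figure D1:**
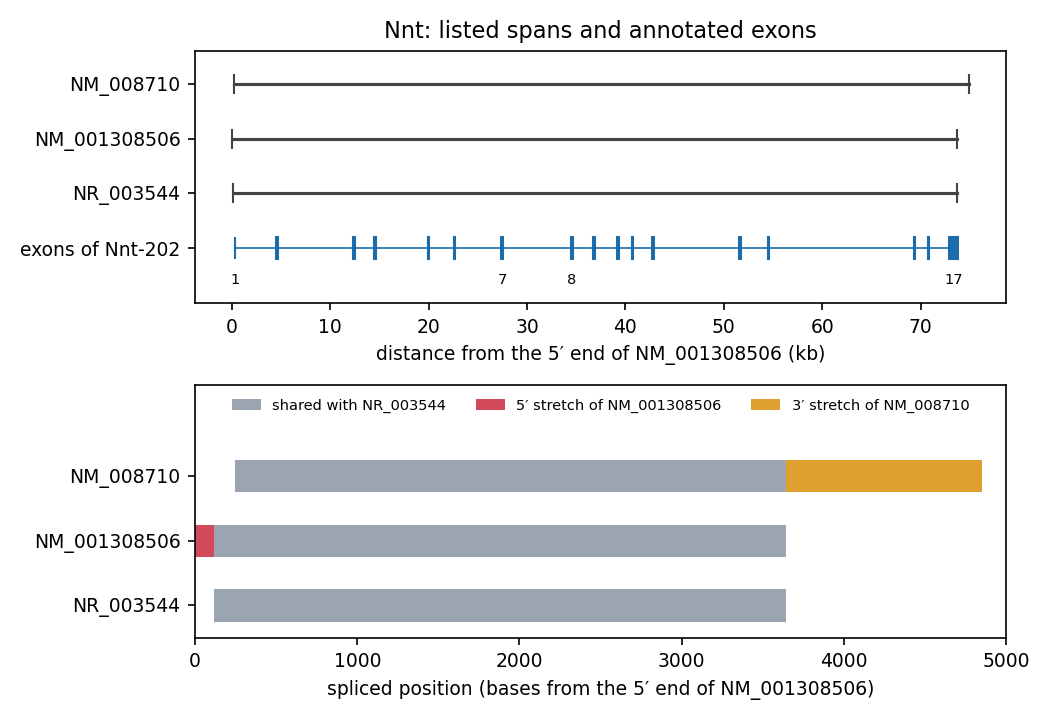
The upper panel draws the listed span of each Nnt form and the 17 exons of Nnt-202 against distance in kb from the 5′ end of NM_001308506. The lower panel draws the spliced forms in bases and shows that NR_003544 has no stretch of its own, while NM_001308506 adds 119 bases at the 5′ end and NM_008710 adds 1210 bases at the 3′ end.

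Nearly all of the Nnt signal was assigned to the form listed as non-coding. NR_003544 had 6.45 FPKM in replicate 1 (deposited 95% bounds 4.98 to 7.92), 8.88 FPKM in replicate 2 (7.15 to 10.6) and 6.93 FPKM in replicate 3 (4.31 to 9.56). The highest value was that of replicate 2, and the bounds of all 3 files overlapped. The mean was 7.42 ± 1.29 FPKM (SD over 3 files), and the summed level of the 3 forms was also 7.42 ± 1.29 FPKM.

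Both coding forms were at the bottom of the scale in every file. NM_001308506 had 0.000621 FPKM in replicate 1, 0.000621 FPKM in replicate 2 and 0.00187 FPKM in replicate 3, with lower bounds of 0 and upper bounds of 0.153, 0.152 and 0.464 FPKM. NM_008710 had 2.83e-35, 4.61e-42 and 1.15e-28 FPKM in replicates 1, 2 and 3, far below the worth of 1 fragment and read here as 0. Its upper bounds were 0.119, 0.119 and 0.361 FPKM. The upper bounds of both coding forms equal about 2 fragments in each file, and the lowest lower bound of NR_003544 lay above all of them. How far these bounds hold the error of assigning fragments between forms was not tested, so this gap is a description.

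The share of NR_003544 in the summed FPKM was 99.99% in replicate 1, 99.99% in replicate 2 and 99.97% in replicate 3. The files differed by less than 1 percentage point. The mean read coverage, a depth per base that is not scaled to sequencing depth, was 3.64, 5.04 and 1.24 for NR_003544 in replicates 1, 2 and 3, against 0.00035, 0.000352 and 0.000335 for NM_001308506.

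**Figure D2:**
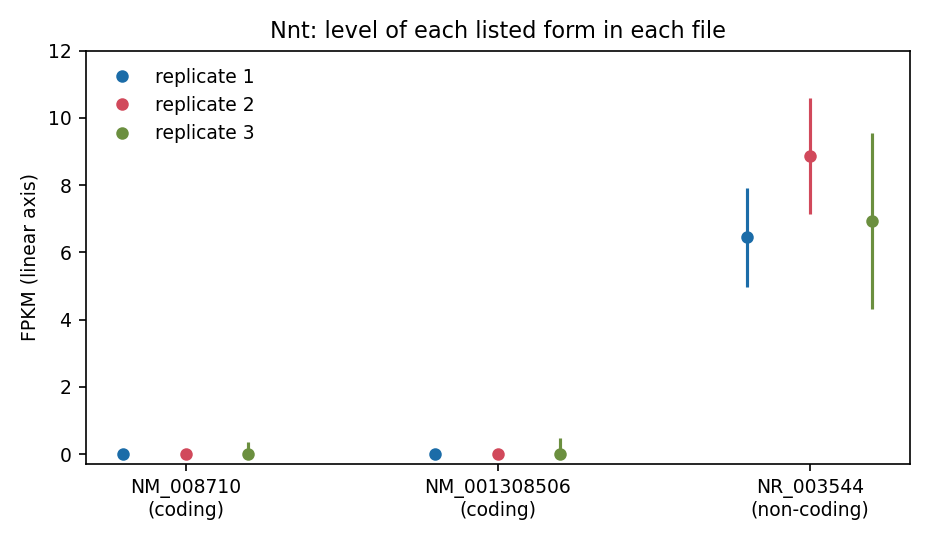
FPKM of each listed Nnt form (points) with the deposited 95% confidence bounds (lines) in replicates 1, 2 and 3, on a linear axis. NR_003544 lies between 6.45 and 8.88 FPKM, and both coding forms lie at or near 0 in every file.

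The fragments behind these values were few. Read back from the deposited bounds, the level of NR_003544 rested on about 77, 106 and 28 fragments in replicates 1, 2 and 3, or 211 together, which are rounded estimates and not counts. At an even density over its 3526 bases, the 119-base stretch that sets NM_001308506 apart would hold 7.11 fragments over the 3 files together, and 2.61, 3.56 and 0.943 in replicates 1, 2 and 3. A stretch of the size of the 3′ end of NM_008710 would hold 72.3 fragments over the 3 files and between 9.59 and 36.2 in a single one. These are sums at an even density, not counts, since the tables give no coverage along the transcript. How far the coverage falls towards the 5′ end was not tested. The split between the non-coding and the second coding entry thus rests on 119 bases of untranslated sequence, while NM_008710 has 1210 bases of its own. The upper bounds of about 2 fragments are for whole forms at estimates near 0. They do not measure how many fragments either stretch held.

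The recovered depth was 3780635, 3786214 and 1243456 mapped fragments in replicates 1, 2 and 3. Over 8728 genes that list 1 form and average 1 FPKM or more, the median ratio of the variance between files to the sampling variance was 0.676, against 0.682 in data simulated with sampling noise alone. The files therefore differed by no more than the sampling noise and were counted as 1 sample, and the SD is a measurement error that says nothing of how animals differ. For NR_003544 the same ratio was 2.38, and 8.9% of the 8728 genes had a higher one. Colonic markers were present, with 8 of 8 epithelial genes at means between 6.21 FPKM (Cdx2) and 2280 FPKM (Tff3) and 5 of 5 smooth muscle genes between 271 and 754 FPKM. The 4 liver genes also stood between 12.6 and 129 FPKM, and of the small intestine genes Fabp6 stood at 95.6 FPKM while Lct, Alpi and Gata4 lay under 0.5 FPKM. The part of such transcripts in the Nnt level was not tested.

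Nnt was a gene of middling level in this tissue. Its mean of 7.42 FPKM lay at the 59.6th percentile of the 17067 genes above 0 and at the 45.5th percentile of the 12632 genes at or above 1 FPKM. On chromosome 13, the nearest listed genes on the 5′ side were Paip1, whose product binds the poly(A)-binding protein, at 14.7 ± 1.56 FPKM and 19.3 kb away, and 4833420G17Rik at 14.6 ± 0.393 FPKM and 53.5 kb away. In every file both stood above the highest Nnt value of 8.88 FPKM. On the 3′ side, the growth factor gene Fgf10 stood at 2.09 ± 0.718 FPKM at a distance of 542 kb, and Gm10732, a non-coding gene, was listed at 0 at a distance of 676 kb.

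The non-coding share of Nnt was set beside that of other genes as a description only, since Nnt was chosen by its own listed values. Of 118 other genes that list exactly 1 coding and 1 non-coding form and reach a mean of 1 FPKM, the median non-coding share was 18.2%, 26 genes (22%) had a share above 50% and 5 had a share above 99%. Placed among them, the share of Nnt had rank 4 from the top, although Nnt lists 2 coding forms and is not of this class. Among 435 other genes with at least 1 form of each kind, a class chosen after the values were seen because Nnt lists 2 coding forms, it had rank 8. Of the 58 genes of the first class within 2-fold of the Nnt level, the closest in share were Hyi, which encodes hydroxypyruvate isomerase, with its coding form at 0.000325 FPKM, the transcription factor gene Atf5 at 93.98%, the homeobox gene Hoxd11 at 73.33%, Gdap2 at 73.13% and the mitochondrial thymidine kinase gene Tk2 at 70.77%. Hyi stood at 9.26 ± 2.3 FPKM with a coding form of 927 bases and a non-coding form of 843 bases.

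Pairs of forms that share an outer end and differ at the other by exactly their difference in length were rare among the listed forms. They were sought in the 5456 genes that list more than 1 form, after the Nnt forms had been seen, and 10 were found. Pairs in which the longer form has a whole further outer exon were not counted. Of the 10 pairs, that of Nnt had the longest additional stretch, 119 bases against at most 34. It was the 1 pair with a non-coding shorter form and a coding longer form. Among 8 pairs with a summed level of at least 1 FPKM, 4 differed at the 5′ end. In these the longer form took 0.014% of the pair's level in Nnt, 0.0982% in Pla2g2a, a secreted phospholipase gene, 0.353% in Rdh7, a retinol dehydrogenase gene, and 49.8% in Oas1b, an antiviral oligoadenylate synthetase gene. The additional stretch was 119 bases in Nnt, 19 bases in Pla2g2a, 34 bases in Rdh7 and 3 bases in Oas1b. These are 4 pairs sought after the Nnt forms had been seen, and whether the share follows the length of the stretch was not tested. The other 4 pairs differed by at most 3 bases at the 3′ end. Their longer form took 14.3% in Cebpa and 48% to 48.5% in the 3 pairs of Vegfa. Below 1 FPKM, the form of Cxcl11 with a further 19 bases at the 5′ end took 5.77% of a pair at 0.062 FPKM.

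Idh2, the mitochondrial NADP+-dependent isocitrate dehydrogenase, is the other main source of NADPH in the matrix and is given for context. Nnt stood at 6.45, 8.88 and 6.93 FPKM in replicates 1, 2 and 3, against 41.8, 37.6 and 39.2 FPKM for Idh2. The values of the 2 genes did not overlap. The log2 ratio of Nnt to Idh2 was -2.41, and Idh2 was 5.33 times as high as Nnt. These FPKM are scaled to length, but transcript levels of 2 enzymes say nothing of their activity.

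The 8 other genes listed under mitochondrial NADPH supply were chosen with earlier results of these data known. Nnt was below 3 of them in every file, above 4 and overlapped with 1. Which of the listed products make NADPH in this tissue was not tested. The 3 higher genes were Glud1, the glutamate dehydrogenase, at 60.6 ± 3.42 FPKM, the malic enzyme gene Me2 at 46.3 ± 0.47 FPKM and Idh2 at 39.5 ± 2.08 FPKM. Nadk2, the mitochondrial NAD kinase, was the neighbour of Nnt in this order at 8.45 ± 0.911 FPKM, and the values of both overlapped. The 4 lower genes were the folate enzymes Mthfd2l (2.98 ± 1.1 FPKM), Mthfd2 (2.42 ± 0.171 FPKM) and Aldh1l2 (0.256 ± 0.137 FPKM) and the malic enzyme gene Me3 (0.381 ± 0.339 FPKM). Of 8 genes of NADPH supply in the cytosol and endoplasmic reticulum, 5 lay above Nnt in every file, led by the pentose phosphate enzyme Pgd at 67.6 ± 2.52 FPKM and Idh1 at 56 ± 5.65 FPKM. Mthfd1 (11.1 ± 2.31 FPKM) overlapped with Nnt, and the malic enzyme gene Me1 (4.58 ± 0.588 FPKM) and H6pd (4.46 ± 0.549 FPKM) lay below it. Of 7 genes of thiol and peroxide defence, which draw on this NADPH or act beside it, 5 lay above Nnt, among them Prdx5 at 124 ± 6.19 FPKM and Txn2 at 88.2 ± 2.88 FPKM. Glrx2 overlapped with Nnt at 6.54 ± 0.972 FPKM, and Txnrd2, the mitochondrial thioredoxin reductase, lay below it at 4.22 ± 0.699 FPKM.

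**Figure D3:**
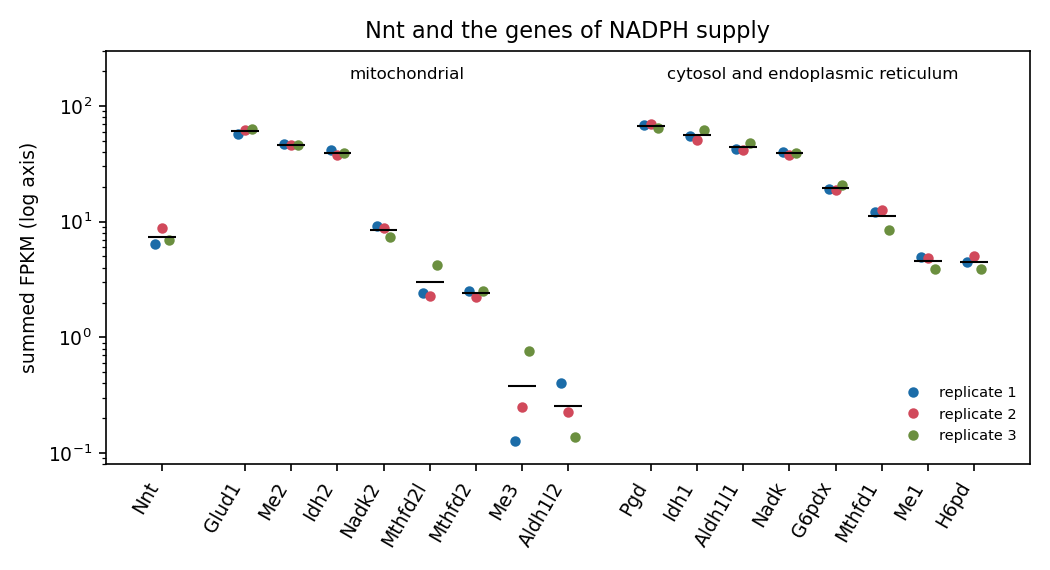
Summed FPKM on a log axis for Nnt, 8 genes listed under mitochondrial NADPH supply and 8 listed under that of the cytosol and endoplasmic reticulum. Points are replicates 1, 2 and 3 and bars their means, with Nnt at 7.42 FPKM under Idh2 at 39.5 FPKM and beside Nadk2 at 8.45 FPKM.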

How the data were processed

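The authors deposited 1 Cufflinks isoform table per sample with FPKM, its 95% confidence bounds and the mean coverage of each isoform (a signal), per the file headers. The submitters' processing notes give Cufflinks as version 2.2.1, Bowtie2 as 2.3.4.3 and TopHat2 as 2.1.1. They name GRCm39, but of 23143 symbols 61.5% start on the same base as in RefSeq GRCm38.p6, so positions are given as GRCm38 and counted from 1. Strandedness, trimming and multiple mapping are not stated in these sources.

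The members and gene lists were chosen with earlier results of these data known. FPKM were summed per symbol and chromosome, without rescaling. A standard error was taken as the distance from the FPKM to its upper bound divided by 2, and its square divided by the FPKM as what 1 fragment is worth. A Theil-Sen line of fragments per FPKM on length, over single-form genes longer than 800 bases with at most 30 fragments, gave the mapped fragments. In these genes 64.1% to 64.3% of values lay within 0.01 of a whole number, so no count table was formed, and the fragments given for Nnt are estimates from the bounds, rounded to whole numbers. Bounds cover at most counting and assignment error. Those of both coding forms came to about 2 fragments in every file, with 119 or 1210 bases of their own. How far they hold the error of assigning fragments between forms was not tested. The comparison of files was tested on simulated data, in which a spread of 20% gave a median ratio of 2.29; a ratio under 1.5 counted the files as 1 sample. No transcript of another gene matched Nnt-202 over at least 100 bases at 97% identity (BLAST+ 2.17.0, megablast).

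Named are Nnt, Idh2, list genes, the 2 nearest genes on each side and the 5 genes of similar level closest in non-coding share. The genes of the nested pairs (Pla2g2a, Rdh7, Oas1b, Cebpa, Vegfa and Cxcl11) lie outside this rule and were named after the values were seen. Calculations used SciPy 1.17.1, pandas 2.3.3 and numpy 2.4.6 under Python 3.11.15, with matplotlib 3.10.9 for plots. A planned search of the Nnt protein in the reference was not run.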

Additional observations from a re-analysis of the deposited data

How the results depend on the processing

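Of 44 alternative values for 9 results, 34 stayed within 1 SD between files, within 1.5 times or on the same side of the limit, 10 moved and 0 reversed. Rescaled to a common sum, the Nnt level was 17.4 TPM, a change of unit. Its percentile was the 71.8th among all genes listed and the 45.5th among genes of at least 1 FPKM. The rank of its non-coding share was 2 among genes of at least 5 FPKM, 7 with no filter and 8 among genes listing at least 1 form of each kind. Leaving out each file in turn gave 6.69 to 7.91 FPKM for the summed level and 99.98% to 99.99% for the non-coding share. It gave the 55.8th to the 60.2nd percentile, a rank of 4 to 5 and a log2 ratio to Idh2 of -2.60 to -2.28. The median ratio of variances was then 0.427 to 0.454. Sampling noise alone gives a lower median ratio with fewer files, so these values do not show closer agreement than 0.676 over all files. The fragments behind Nnt were 105 without replicate 2 and 133 without replicate 1, by having fewer files. No paired analysis was possible because the samples form 1 group. The depth limits the split between NR_003544 and NM_001308506. At the even density of all Nnt fragments, the stretch of 119 bases would hold 7.11 fragments over the files together.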
